A study of Oryza sativa Indica Group with 24 samples.

Results

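The step from 7 to 14 days post-anthesis (DPA) was examined in grain of RD57, a high-amylose indica rice cultivar. The 6 libraries used were the 3 of RD57 at 14 DPA and the 3 of RD57 at 7 DPA, chosen by their column names among the 24 libraries of the series. The labels name no transgene and no treatment, and set the groups apart by cultivar and stage. The other libraries were RD57 at 21 and 28 DPA and RD6, a waxy (glutinous) cultivar, at the same 4 stages, each group with 3 biological replicates from separate plants. Of these, RD57 at 21 DPA showed whether a change lasted, and RD6 at 7, 14 and 21 DPA gave a second cultivar for the same genes. The labels name the tissue as endosperm, while the extraction is described from grains, so that pericarp, embryo and endosperm RNA may be mixed. Because the table lists nearly all genes by assembly identifiers without names, the tissue could not be checked against its marker genes.

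A rice grain at 7 DPA has a newly cellularised endosperm in which starch and protein storage is beginning. During grain filling the endosperm builds starch from ADP-glucose, which ADP-glucose pyrophosphorylase supplies, and lays down glutelins and prolamins in protein bodies. Amylose, the nearly unbranched part of starch, is made by granule-bound starch synthase I (GBSSI), the product of the Waxy gene. Waxy cultivars have little GBSSI activity and almost no amylose.

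Values were FPKM (sequenced fragments per kilobase of transcript, normalized by the authors with Cuffnorm) for 26362 genes. Changes are differences of means of log2(FPKM + 0.5). Within each stage of RD57 the libraries were alike, with Pearson correlations of log2 values of 0.973 to 0.983 among the 14 DPA libraries and 0.970 to 0.984 among those of 7 DPA. One library stood apart from its group. In replicate 1 of 7 DPA the 10 most abundant genes held 17.7% of summed FPKM, against 27.9% and 29.1% in replicates 2 and 3, and it correlated less with the 14 DPA libraries (0.848 to 0.874) than the others did (0.885 to 0.916). The total counts of rises, falls and lasting changes are given with and without it, and most sums are given by replicate. FPKM keep no read depth, so precision was judged from the spread among replicates. In the fit this spread is pooled over all 8 groups and 24 libraries. An SE given here is therefore not that of the RD57 replicates at 7 and 14 DPA alone. In whole grain, fewer cells of a type and less RNA per cell cannot be told apart.

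Between 7 and 14 DPA, 1330 genes rose and 700 fell in RD57. These were 5.05% and 2.66% of all genes tested in limma, with a Benjamini-Hochberg adjusted p of at most 0.05 and a log2 change of at least 2 (a 4-fold change on the log2(FPKM + 0.5) scale). By adjusted p alone 6175 genes (23.4%) were higher and 5319 (20.2%) lower. Every 14 DPA library lay above every 7 DPA library for 6549 genes (24.8%) and below for 5807 (22.0%). Of these, 1783 and 1660 were listed at 0 at only 1 of the 2 stages. Such genes separate by construction, since a gene was listed at 0 in all replicates of a group or in none. More genes differed between the stages than differed by a large factor. Without replicate 1 of 7 DPA the counts were 1170 rises and 622 falls, of which 1152 and 568 were among those called with it.

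More than any other class, the rises came from genes listed at 0 at 7 DPA. Of the 1330 genes that rose, 724 were listed at 0 FPKM at 7 DPA, 132 started above 0 and under 2 FPKM, 252 from 2 to under 10, 194 from 10 to under 100, and 28 from 100 to under 1000. None of the 94 genes that started at 1000 FPKM or more rose by this test. As a share of the genes in each class, 14.2% of the 5114 genes listed at 0 rose, against 2.89%, 3.16%, 2.61%, 2.36% and 0% from the next class to the highest.

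By number, most falls came from genes of low level. As a share of the genes above 0 in a class they ranged only from 2.11% to 4.39%, against 2.66% of all genes. No gene listed at 0 can fall, and a gene must start at 1.5 FPKM or more to be able to lose 2 log2 units on this scale. From above 0 to under 2 FPKM 154 genes fell (3.38% of the class), from 2 to under 10 FPKM 350 (4.39%), from 10 to under 100 FPKM 168 (2.26%), from 100 to under 1000 FPKM 25 (2.11%) and from 1000 FPKM upward 3 (3.19%). Rises outnumbered falls in the 10 to under 100 class (194 to 168) when all libraries were used. Without replicate 1 of 7 DPA that order turned, with 116 rises and 147 falls. In the 2 to under 10 class falls outnumbered rises either way, with 320 falls and 179 rises without that library.

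**Figure D1:**
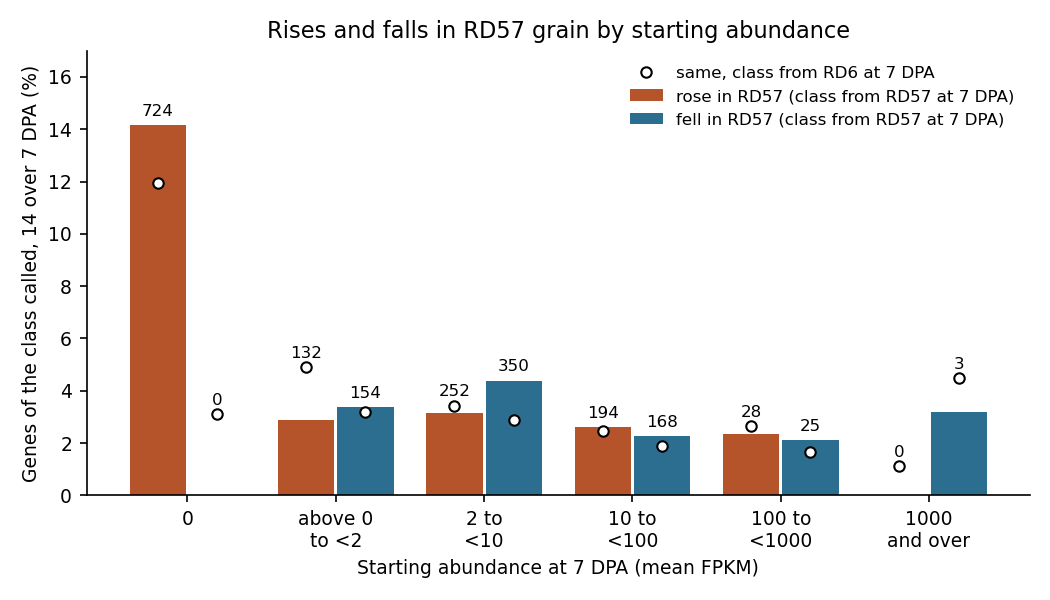
Share of genes of each starting class (mean FPKM of RD57 at 7 DPA, x axis) that rose (left bar) or fell (right bar) in RD57 at 14 over 7 DPA, in percent (y axis), with the number of genes in each bar printed over it. Open points give the share when the class is set from RD6 at 7 DPA, and 14.2% of genes listed at 0 rose against 3.16% or less in each higher class.

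A starting class set from RD57 at 7 DPA uses the same libraries as the change itself, so the classes were also set from RD6 at 7 DPA. Sorted in this way, 12.0% of the 5135 genes listed at 0 in RD6 rose in RD57, and 4.90%, 3.43%, 2.44%, 2.64% and 1.12% of the higher classes. The falls were then 3.12% of genes listed at 0 in RD6, 3.17% and 2.88% of those up to 10 FPKM, 1.88% and 1.67% of the next classes, and 4.49% (4 genes) of those at 1000 FPKM and above. The larger share of rises among genes listed at 0 was thus also seen with libraries not used in the change, while the peak of falls at 2 to under 10 FPKM did not.

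Much of the change was genes crossing the detection floor, the 0.5 FPKM below which the authors set values aside. There were 1783 genes listed at 0 at 7 DPA and above 0 at 14 DPA. The 724 of them that were called reached a median of 2.83 FPKM at 14 DPA (quartiles 2.02 and 4.38), and only 59 reached 10 FPKM and 4 reached 100 FPKM. In the other direction 1660 genes above 0 at 7 DPA were listed at 0 at 14 DPA, and the 534 of them that were called had started from a median of 2.61 FPKM (quartiles 1.94 and 4.21). A further 19588 genes were above 0 at both stages. Among these, 606 rose with a median log2 change of 2.52 and 166 fell with a median of -2.41. The number of genes at both stages that rose by at least 4 log2 units was 40, and 13 fell by as much. A listed 0 covers anything under the floor, so these are crossings of 0.5 FPKM and not proof of silence. Among called genes, 292 of those that rose and 211 of those that fell held a value filled in by the authors from the other replicates.

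The genes that already dominated the grain at 7 DPA carried 469403 of the 603791 FPKM by which the mean sum was higher at 14 DPA, although none of them rose by the test. The 94 genes that started at 1000 FPKM or more summed to 956296, 1031990 and 1054588 FPKM in replicates 1 to 3 at 14 DPA, against 400594, 609186 and 624886 FPKM in those at 7 DPA. They made up 57.3%, 59.6% and 60.3% of all FPKM at 14 DPA, against 40.4%, 52.0% and 53.1% at 7 DPA. All other genes together summed to 702689 ± 10151 FPKM at 14 DPA and 568300 ± 20123 FPKM at 7 DPA (SD, n = 3 each). For each of these sums every 14 DPA library was above every 7 DPA library, the exact two-sided permutation p being 0.1, the smallest that 3 against 3 libraries allow.

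Within these 94 genes the changes went both ways. The mean was higher at 14 DPA in 47 and lower in 47, with a median log2 change of 0.01 and quartiles of -0.61 and 0.76. By adjusted p alone 5 were higher and 20 lower, while 33 had every 14 DPA library above every 7 DPA library and 27 had every one below. The standard error of the change had a median of 0.50 log2 units in this class, against 0.21 in genes that started from 10 to under 100 FPKM. A log2 increase of 1 or more was measured in 16 of the 94 genes and one of 2 or more in 1 gene, whose adjusted p was 0.0509, while 3 genes fell by the test.

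Summed FPKM per library was 1716980 ± 41358 at 14 DPA and 1113189 ± 105548 at 7 DPA (SD, n = 3 each). The total is not fixed by the unit, and why it differed between stages was not tested. The median log2 value of genes above 0 in every library was 3.54 to 3.61 at 14 DPA and 3.45 to 3.48 at 7 DPA. The 100 most abundant genes of a library held 62.6%, 62.1% and 62.6% of the sum at 14 DPA, against 41.5%, 52.7% and 53.7% at 7 DPA. This is a difference of 13.1 percentage points with no overlap between stages (exact two-sided permutation p = 0.1), or 9.26 points without replicate 1 of 7 DPA. Of the 100 genes with the highest mean at 14 DPA, 63 were also among the first 100 at 7 DPA and 18 rose by the test, a direction that ranking at 14 DPA favours. Of the 100 genes with the highest mean at 7 DPA, 0 rose and 3 fell, and ranking at 7 DPA favours falls. Over all genes 5.05% rose and 2.66% fell. The single most abundant gene took 11.8%, 13.4% and 12.3% of all FPKM at 14 DPA, against 4.53%, 8.83% and 9.68% at 7 DPA. Its log2 change of 1.40 (SE 1.13 pooled over all 8 groups, limma adjusted p = 0.363) did not pass the test.

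**Figure D2:**
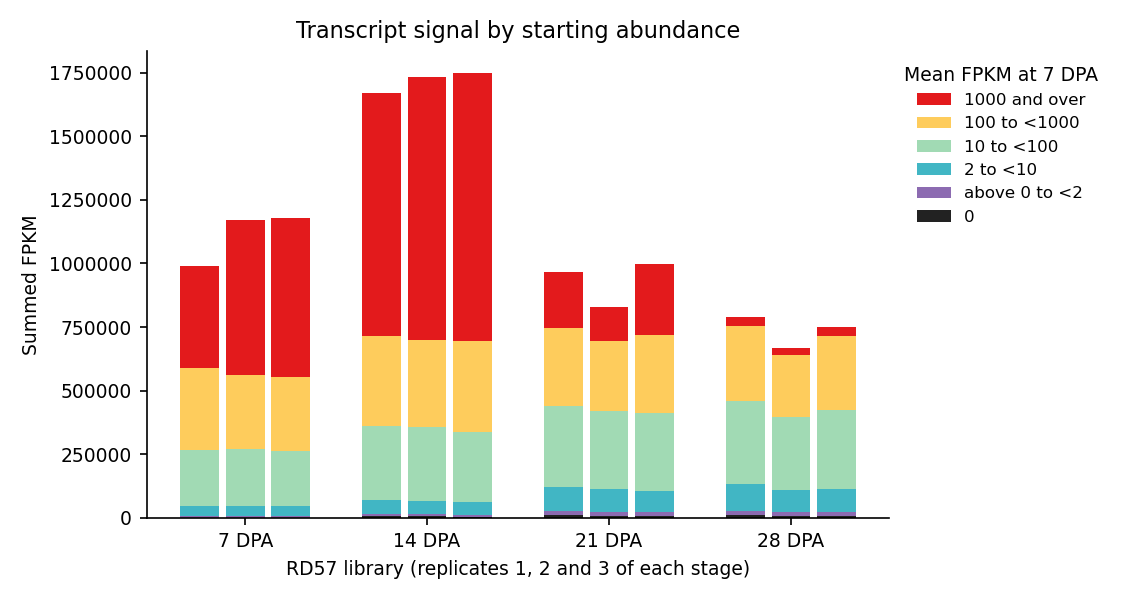
Summed FPKM (y axis) of each RD57 library by stage (x axis, with replicates 1 to 3 from left to right), stacked by the mean FPKM of the genes at 7 DPA. The 94 genes that started at 1000 FPKM or more make up 57.3% to 60.3% of the bars at 14 DPA and 40.4% to 53.1% at 7 DPA, and fall to 16.2% to 28.0% at 21 DPA.

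Whether a change lasted was read from the contrast of 21 over 7 DPA, which shares the 7 DPA libraries with the contrast that chose the genes. A gene stayed up or down when it passed both thresholds in the same direction. Over all genes, 8.02% were above and 12.1% below their 7 DPA level at 21 DPA. Of the 1330 genes that rose, 552 (41.5%) stayed above 7 DPA, and of the 700 that fell, 587 (83.9%) stayed below. Without replicate 1 of 7 DPA these were 500 of 1170 and 519 of 622.

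The share of rises that lasted was lowest among genes listed at 0 and highest in the class from 100 to under 1000 FPKM. Of the genes that rose, 36.7% of those listed at 0 at 7 DPA stayed up, 43.9% and 43.7% of those that started above 0 to under 2 and from 2 to under 10 FPKM, 48.5% from 10 to under 100 FPKM, and 24 of 28 (85.7%) from 100 to under 1000 FPKM. The corresponding shares among all genes of these classes were 17.2%, 8.33%, 6.52%, 3.91% and 3.46%. From 14 to 21 DPA 546 of the 1330 genes fell by the same thresholds (background 11.9%) and 162 rose further (background 5.01%), all 162 being among those that stayed up. At 21 DPA 344 of the 1330 were listed at 0, of which 322 had also been listed at 0 at 7 DPA. Of all 26362 genes, 20236 were above 0 in RD57 at 21 DPA and the rest were listed at 0. The highest mean of the 4 RD57 stages lay at 14 DPA in 875 of the 1330 genes, at 21 DPA in 260 and at 28 DPA in 195. In the 100 to under 1000 class it lay at 14 DPA in only 5 of 28.

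The levels of genes that stayed up and of those that did not are set apart at 21 DPA by the call itself, and are given as a description. In the class from 2 to under 10 FPKM, the 110 that stayed up had median levels of 4.43, 35.9, 93.0 and 98.5 FPKM at 7, 14, 21 and 28 DPA, and the 142 that did not had 4.25, 26.4, 4.95 and 0.88 FPKM. In the class from 10 to under 100 FPKM the medians were 25.9, 183, 525 and 456 FPKM for the 94 that stayed up and 21.9, 108, 21.6 and 4.60 FPKM for the other 100. The rise at 14 DPA itself had a median log2 change of 2.83 in the 552 genes that stayed up and 2.45 in the 778 that did not. All of them had to reach 2 to be called. In the class from 10 to under 100 FPKM the medians were 2.90 and 2.36. The median was higher in the genes that stayed up in every class, a difference that was not tested.

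**Figure D3:**
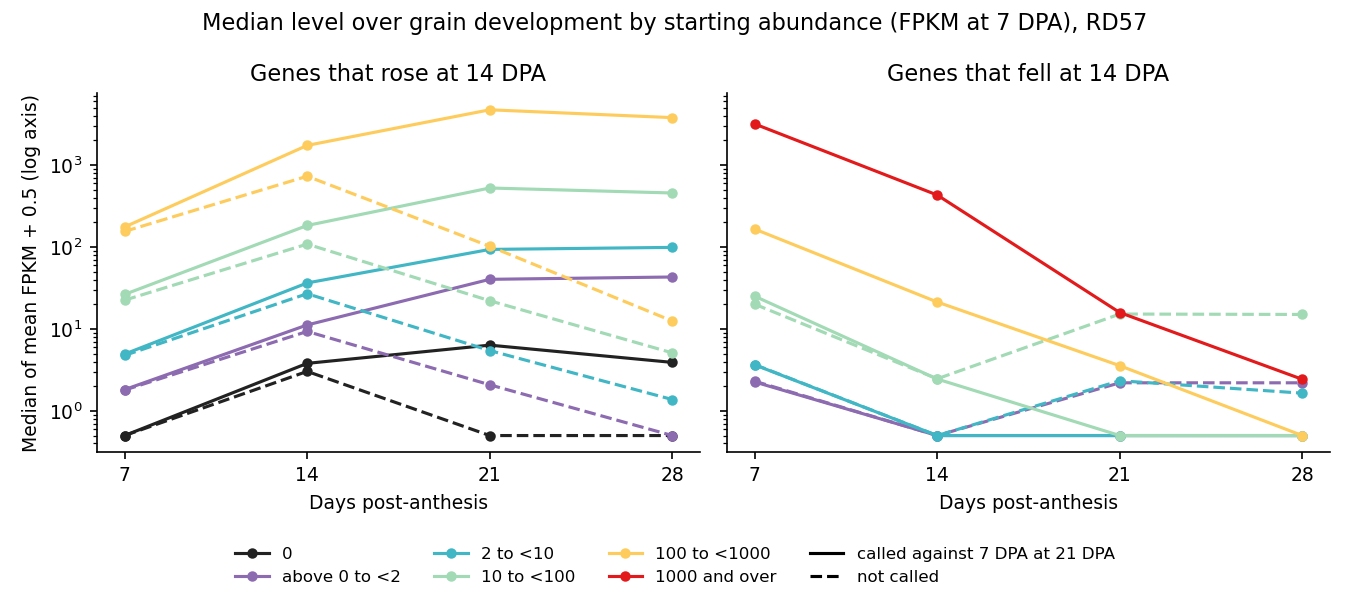
Median over genes of mean FPKM + 0.5 (log y axis) in RD57 by DPA (x axis), for genes that rose (left) or fell (right) at 14 DPA, coloured by starting class, with a solid line for genes still called against 7 DPA at 21 DPA and a dashed line for the others. Sets under 3 genes are left out. The split into solid and dashed lines uses the 21 DPA level, so their distance at 21 DPA follows from the split. In the 2 to under 10 class the medians at 14 DPA were 35.9 FPKM for the solid and 26.4 FPKM for the dashed line.

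The 28 genes that rose from 100 to under 1000 FPKM were few but abundant. Together they summed to 74461, 41701 and 37722 FPKM at 14 DPA, against 3628, 8206 and 7469 FPKM at 7 DPA, and to 133050, 112589 and 128230 FPKM at 21 DPA. Replicate 1 was the highest library at 14 DPA and the lowest at 7 DPA, and the stages did not overlap. At 21 DPA these 28 genes held 12.8% to 13.8% of all FPKM. All 1330 genes that rose held 9.45%, 5.66% and 4.93% of FPKM at 14 DPA, against 0.76%, 1.57% and 1.28% at 7 DPA, and reached 28.0% to 31.6% at 21 DPA and 31.9% to 37.6% at 28 DPA. The shares at 7 and 14 DPA are set by how the genes were chosen, while those at 21 and 28 DPA are not.

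Most falls lasted. Of the genes that fell, 78.6% of those that started above 0 to under 2 FPKM stayed below 7 DPA at 21 DPA, 81.7% from 2 to under 10 FPKM, 91.1% from 10 to under 100 FPKM, 24 of 25 from 100 to under 1000 FPKM and 3 of 3 above that. Among all genes of these classes the shares were 7.54%, 17.1%, 14.4%, 30.8% and 47.9%. At 21 DPA 513 of the 700 genes were listed at 0, and 522 at 28 DPA. Of all 26362 genes, 20236 were above 0 in RD57 at 21 DPA and 19002 at 28 DPA. From 14 to 21 DPA 55 of the 700 (7.86%) rose, against 5.01% of all genes. A further fall was called in 69 (9.86%), against 11.9% of all genes, a number held down by the 534 that were at 0 at 14 DPA already. The 700 genes held 0.11% to 0.22% of all FPKM at 14 DPA, against 1.57% to 3.77% at 7 DPA, and 0.12% to 0.14% at 21 DPA.

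**Figure D4:**
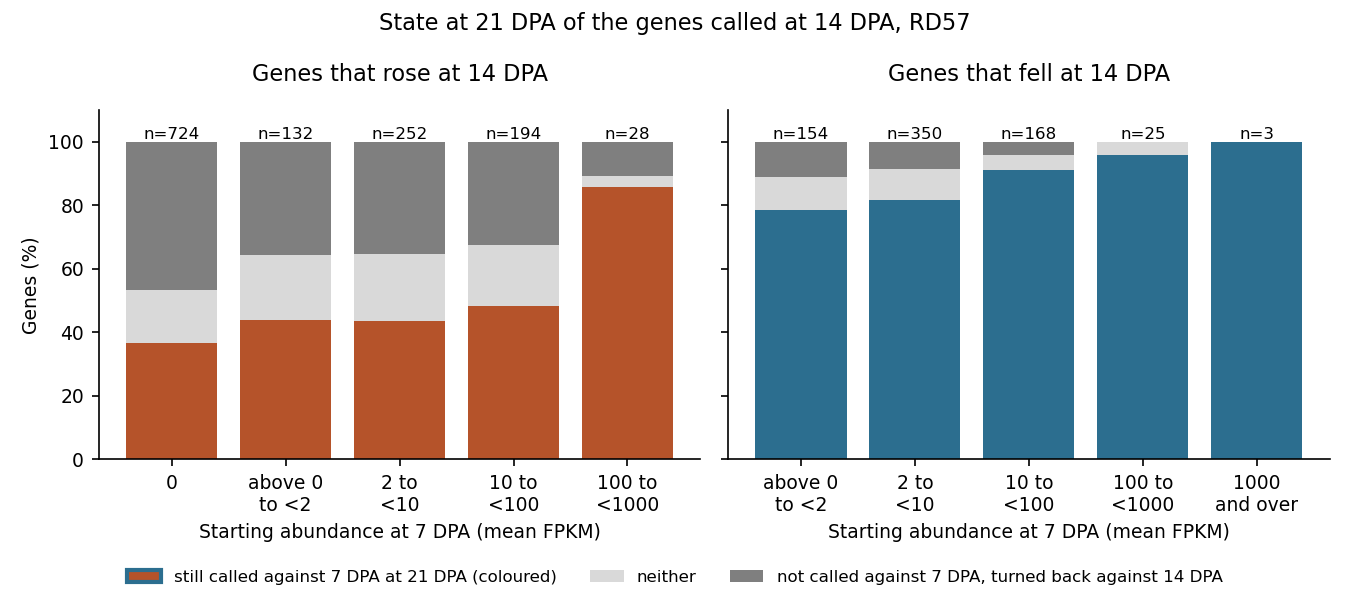
Share of the genes that rose (left) or fell (right) in RD57 at 14 over 7 DPA, in percent (y axis), by starting class (x axis), that were still called in the same direction at 21 over 7 DPA (coloured), that were not and were called in the opposite direction at 21 over 14 DPA (dark grey), or neither (light grey). Of genes listed at 0 that rose 36.7% stayed up, against 85.7% of those from 100 to under 1000 FPKM, while 78.6% or more of the falls stayed down in every class.

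Of the most abundant genes at 7 DPA, none was called higher at 21 DPA. At 21 DPA 45 of the 94 genes that started at 1000 FPKM or more (47.9%) were below 7 DPA by both thresholds, and 56 (59.6%) were below 14 DPA. Over all genes 12.1% were below 7 DPA, 11.9% below 14 DPA and 8.02% above 7 DPA. The 94 genes were chosen as high in the same 7 DPA libraries, which favours a lower value at 21 over 7 DPA. Their sum was 222217, 134532 and 279469 FPKM at 21 DPA and 27182 to 34192 FPKM at 28 DPA.

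GBSSI, which makes amylose, had 18968, 27204 and 17505 FPKM at 14 DPA, against 10868, 11754 and 9311 FPKM at 7 DPA. The 14 DPA libraries were all higher, but the log2 change of 0.97 (SE 0.77, limma adjusted p = 0.349) did not pass the test, and with quantile normalization it was 0.12. The SE is pooled over all 8 groups, among them RD6 at 28 DPA with 29.8, 22.5 and 521 FPKM in replicates 1 to 3. At 21 DPA GBSSI had 6308, 4240 and 7362 FPKM, below both earlier stages in every library. The log2 change of 21 over 7 DPA was -0.86 (SE 0.77, limma adjusted p = 0.356) and did not pass the test. It was lower at 21 than at 14 DPA by adjusted p (log2 change -1.84, SE 0.77, limma adjusted p = 0.0434). In RD6 GBSSI averaged 7381 ± 1555 FPKM at 14 DPA and 1743 ± 136 FPKM at 7 DPA (SD, n = 3 each). Its log2 change there was 2.06 (SE 0.77, limma adjusted p = 0.0366), a rise that passed both thresholds. The 14 over 7 DPA change of RD57 minus that of RD6 was -1.09 (SE 1.08, limma adjusted p = 0.589), a difference within the error.

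AgpS2b, the small subunit of ADP-glucose pyrophosphorylase, had 2880, 3936 and 3104 FPKM at 14 DPA, against 2410, 2360 and 2334 FPKM at 7 DPA. The groups did not overlap. The log2 change of 0.47 (SE 0.63, limma adjusted p = 0.638), or 0.07 with quantile normalization, again did not pass the test. Here too the SE is pooled over all 8 groups, among them RD6 at 28 DPA with 45.8, 40.6 and 506 FPKM in replicates 1 to 3. At 21 DPA it had 431, 313 and 630 FPKM, and it was lower than at 7 DPA with a log2 change of -2.43 (SE 0.63, limma adjusted p = 0.00197). In RD6 it averaged 2691 ± 359 FPKM at 14 DPA and 1490 ± 211 FPKM at 7 DPA (SD, n = 3 each), and its change did not differ from that of RD57 beyond the error (limma adjusted p = 0.874). Both starch genes started in the class of 1000 FPKM and above, whose sum was highest at 14 DPA.

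AtGSTF13, listed under the name of a phi-class glutathione S-transferase of Arabidopsis, had 51.4, 55.0 and 42.9 FPKM at 14 DPA, against 6.95, 23.3 and 14.9 FPKM at 7 DPA. All 14 DPA libraries were above all 7 DPA libraries, and the log2 change was 1.84 (SE 0.42, limma adjusted p = 0.00129), past the adjusted p but short of the 2 log2 units that counted genes needed. The rise did not last, with 2.36, 4.20 and 8.63 FPKM at 21 DPA and all libraries listed at 0 at 28 DPA. ENOD93, named for an early nodulin, had 44.8, 84.4 and 233 FPKM at 14 DPA, against 16.7, 31.4 and 27.8 FPKM at 7 DPA, a log2 change of 1.95 (SE 0.59, limma adjusted p = 0.0108). It rested on single libraries, since the adjusted p was 0.0832 without replicate 3 of 14 DPA and 0.0543 without replicate 1 of 7 DPA. At 21 DPA ENOD93 had 4.16, 0.73 and 5.74 FPKM, below 7 DPA in every library. The identifiers of these 4 named genes were read by eye from a printed heat map of genes highest at 14 DPA, so a misread digit would give another gene, and the direction of their change at 14 DPA is not independent evidence.

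Other genes can be given by identifier alone. The largest rise among genes above 0 in all 6 libraries was that of XLOC_005239, with 664, 170 and 311 FPKM at 14 DPA, against 0.92, 3.56 and 3.75 FPKM at 7 DPA. Its log2 change was 6.82 (SE 0.60, limma adjusted p = 1.14e-08), and it kept rising to 1280, 1128 and 1070 FPKM at 21 DPA. The largest gain in FPKM was that of XLOC_026456, with 10016, 3933 and 3666 FPKM at 14 DPA, against 107, 495 and 417 FPKM at 7 DPA, a log2 change of 4.22 (SE 0.48, limma adjusted p = 5.36e-07). It was held at 9977, 8209 and 9195 FPKM at 21 DPA. For both genes replicate 1 was the highest library at 14 DPA and the lowest at 7 DPA, and the stages did not overlap.

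Of the falls, XLOC_037795 had the largest log2 change, with 2.12, 2.01 and 6.37 FPKM at 14 DPA, against 816, 411 and 627 FPKM at 7 DPA (log2 change -7.39, SE 0.54, limma adjusted p = 7.36e-10). It had 1.53, 1.73 and 1.34 FPKM at 21 DPA, and the value of replicate 1 there is the mean of the other 2, a value filled in by the authors. XLOC_023149 lost the most FPKM, with 563, 1271 and 1580 FPKM at 14 DPA, against 6691, 3829 and 3656 FPKM at 7 DPA (log2 change -2.12, SE 0.47, limma adjusted p = 0.00100). Its fall went on to 28.0, 45.3 and 127 FPKM at 21 DPA. Without replicate 1 of 7 DPA its change was -1.84, past the adjusted p and short of 2 log2 units.

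**Figure D5:**
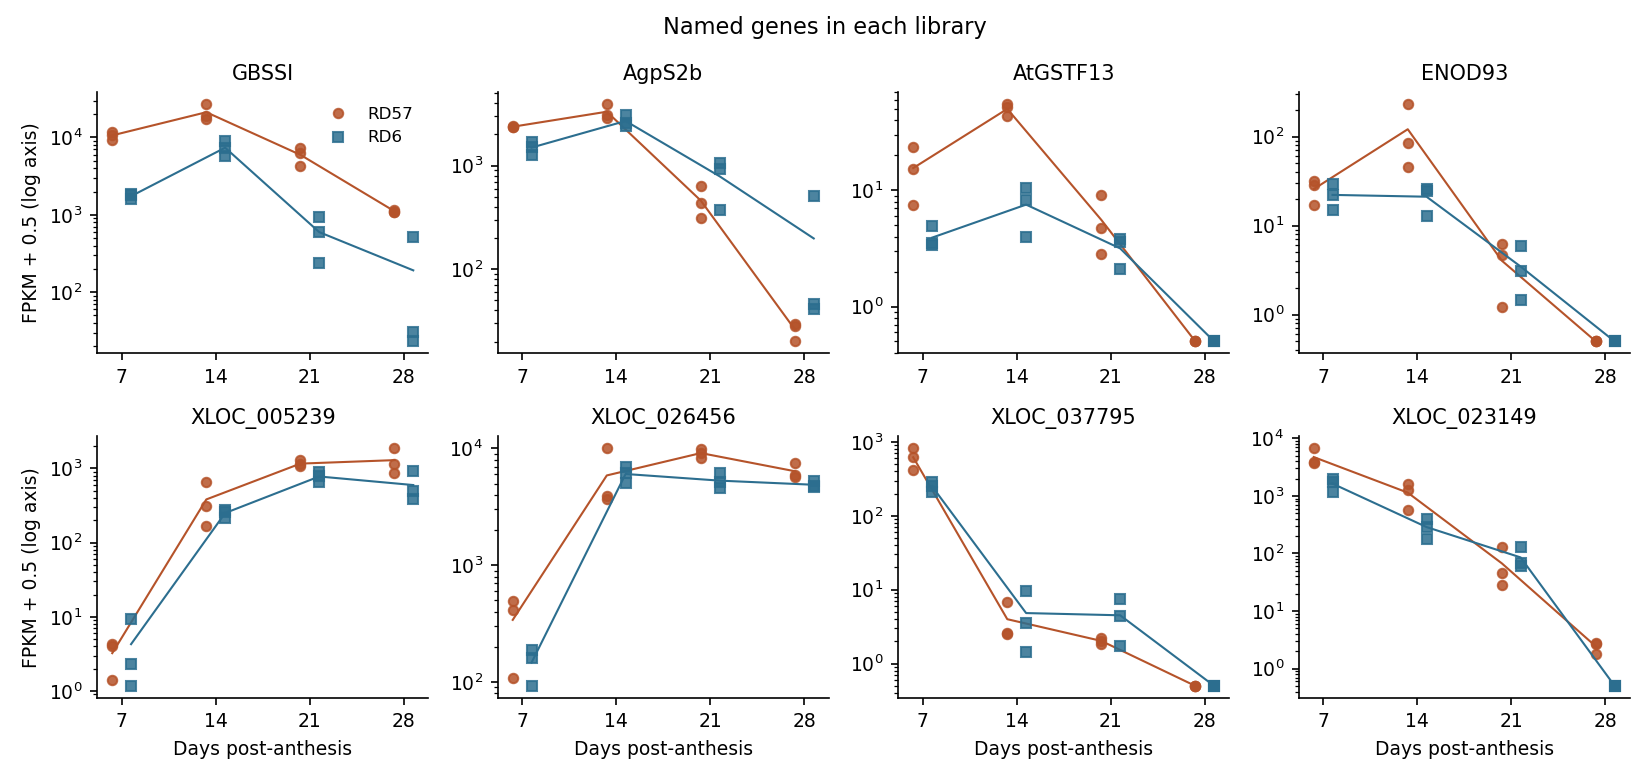
FPKM + 0.5 (log y axis) of the 8 named genes in each library of RD57 (circles) and RD6 (squares) by DPA (x axis, cultivars set slightly apart), with lines through the group means. In RD57 at 21 DPA, AgpS2b is below its 7 DPA level, and the lower GBSSI values did not pass the test against 7 DPA (limma adjusted p = 0.356). XLOC_005239 and XLOC_026456 keep the level gained at 14 DPA, and XLOC_037795 and XLOC_023149 do not return.

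RD6 gave separate libraries for the same genes. Of the 1330 genes that rose in RD57, 694 (52.2%) also rose in RD6 at 14 over 7 DPA, against 5.32% of all genes, and 15 fell. Of the 700 that fell in RD57, 249 (35.6%) also fell in RD6, against 2.88% of all genes, and 16 rose. The share called in both cultivars grew with the starting level. Among the rises it was 37.6% for genes listed at 0, 54.5%, 67.5% and 78.9% for the classes up to 100 FPKM, and 27 of 28 for those from 100 to under 1000 FPKM. Among the falls it was 22.1%, 32.0% and 50.6% for the classes up to 100 FPKM, then 16 of 25 and 2 of 3. In all, 180 of the genes that rose and 136 of those that fell were listed at 0 in RD6 at both stages. The 4 genes given by identifier changed in the same direction in RD6, and their changes did not differ between cultivars beyond the error (limma adjusted p from 0.268 to 0.845).

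Persistence in RD57 went along with the state of the gene in RD6 at 21 DPA. The levels in the RD6 libraries did not enter the RD57 changes. They shared the pooled estimate of spread by which genes of both cultivars were called. Of the 552 genes that rose and stayed up in RD57, 75.4% were above 7 DPA at 21 DPA in RD6 as well, against 15.7% of the 778 that did not stay up and 6.92% of all genes. Within the class listed at 0 the shares were 62.0% and 12.7%, and within the class from 10 to under 100 FPKM 90.4% and 14.0%. For the falls, 54.3% of the 587 that stayed down in RD57 were below 7 DPA at 21 DPA in RD6, against 11.5% of the other 113 and 7.81% of all genes.

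The change from 7 to 14 DPA differed between RD57 and RD6 for 1387 genes (5.26%), with 755 (2.86%) moving more upward and 632 (2.40%) more downward in RD57. Of the genes that rose in RD57 334 (25.1%) were among them, and of those that fell 251 (35.9%), shares that come in part from choosing genes by the same RD57 libraries. In 177 of the 334 and 135 of the 251 the gene was listed at 0 in RD6 at both stages, and 1225 of the 1387 (88.3%) were listed at 0 in at least 1 of the 4 groups compared. From genes listed at 0 to those from 100 to under 1000 FPKM, the difference was called in 37.3%, 17.4%, 10.7%, 6.19% and 7.14% of the genes that rose. Among the genes that fell it was called in 56 of 154, 149 of 350, 42 of 168, 4 of 25 and 0 of 3 from the class above 0 to under 2 FPKM to the highest.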

How the data were processed

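RNA from grain of RD57 and RD6 was sequenced at 4 stages with 3 biological replicates each, from plants grown in pots in a net house. The authors trimmed reads with Fastp and Trimmomatic, removed rRNA with SortMeRNA, aligned to the indica genome ASM465v1 with HISAT2, and obtained the deposited FPKM with Cufflinks, Cuffmerge, Cuffquant and Cuffnorm. Tool versions are not given in the sources used here. The authors excluded values under 0.5 FPKM, kept genes found in at least 2 replicates and filled missing values with the replicate mean, which narrows the spread. The smallest value above 0 was 0.50004, and from 4.13% to 10.2% of genes per group held a filled value (matched within a relative 2e-06). How reads of near-identical copies were divided was settled in that processing. Depth behind a value is unknown, so no counting interval was computed.

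Columns were matched to samples by their names, with 0 left over. Values were transformed to log2(FPKM + 0.5) without rescaling or filter and fitted with limma 3.58.1 in R 4.3.3, with 8 group means over 24 libraries and a trended prior variance. P-values were adjusted over 26362 genes. Counted genes passed an adjusted p of 0.05 and an absolute log2 change of 2, and single genes were called by adjusted p. The count model of the study was not used, since FPKM are not counts. Sums and shares were compared by exact two-sided permutation (scipy 1.17.1, smallest p 0.1). The fit was tested on simulated data. Tables and plots were made in Python 3.11.15 (pandas 2.3.3, matplotlib 3.10.9).

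The libraries, classes, named genes and tests were chosen with earlier results of these data known. Named genes were the 4 whose identifier is legible beside a name in the study, and, among genes called, above 0 in all 6 libraries and without a filled value in them, the 2 that rose (of 516) and the 2 that fell (of 135) with the largest log2 change or the largest gain or loss in mean FPKM. No identifier matched the gene table of the Japonica assembly ASM3414082v1, so no sequences or positions are given. Alternatives were other pseudocounts, filters, scalings, fold thresholds, library subsets, classes set from RD6, and each library left out. Class counts without replicate 1 of 7 DPA were added after seeing the data.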

Additional observations from a re-analysis of the deposited data

Results flagged for a closer look

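The change from 7 to 14 DPA differed between RD57 and RD6, by a test of the difference itself, for 1387 genes (5.26% of those tested, limma, adjusted p of at most 0.05 and a difference of at least 2 log2 units). In 15 of them the gene rose in RD57 and fell in RD6, and in 16 it fell in RD57 and rose in RD6. Of the 1387, 162 were above 0 in all 4 groups compared.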

How the results depend on the processing

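The counts depend on the pseudocount, the fold threshold and the treatment of zeros. With a pseudocount of 0.1 there were 2510 rises, 1883 falls, 1259 rises and 1367 falls that lasted to 21 DPA, and 4352 differences between cultivars. With a pseudocount of 1 these were 801, 319, 354, 279 and 541. With genes above 0 in every library of the groups compared they were 608, 166, 286, 69 and 127. The 69 also had to be above 0 at 21 DPA, and 147 of the 166 falls above 0 at both 14 and 7 DPA lasted. With a log2 threshold of 1 the counts were 4122, 2950, 1924, 2173 and 4833. Leaving out genes with a filled value gave 386 lasting falls and 544 differences. Leaving out 1 library at a time gave 1170 to 1475 rises, 622 to 782 falls, 465 to 601 lasting rises, 519 to 645 lasting falls and 1356 to 1471 differences. Quantile normalization moved the median log2 change of genes above 0 to -0.10, with 1112 rises and 616 falls. A replicate block gave 1331 rises and 700 falls, and equal replicate numbers did not deviate together (correlations of -0.07, 0.04 and -0.07 over 19588 genes), so the numbers are not taken as pairs. The block changed the call of none of the 8 named genes.

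In RD57, GBSSI and AgpS2b passed the threshold at 14 over 7 DPA under none of the alternatives run (adjusted p from 0.295 to 1 and from 0.549 to 1). Except for the fit of only the groups compared, these fits pooled the spread over all 8 groups. In that fit the SE was 3.52 log2 units for GBSSI (0.77 in the main fit) and 0.50 for AgpS2b (0.63). For both genes the libraries of the 2 stages did not overlap. The alternatives therefore do not measure how well the RD57 replicates at 7 and 14 DPA agree. With quantile normalization their log2 changes were 0.12 and 0.07, against 0.97 and 0.47 as deposited. ENOD93 lost its call in a fit of only the groups compared (adjusted p = 0.0749) and without replicate 3 of 14 DPA or replicate 1 of 7 DPA (0.0832 and 0.0543). No count or named gene reversed, but without replicate 1 of 7 DPA falls (147) outnumbered rises (116) in the 10 to under 100 FPKM class. Precision is limited by 3 libraries a group. The SE, pooled over all 8 groups, had a median of 0.50 log2 units in genes that started at 1000 FPKM or more. It was 0.21 in those from 10 to under 100 FPKM, with the same number of libraries.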
